A study of Chlorocebus sabaeus with 6 samples.

Results

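Of 18050 genes measured in COS7 cells, 74 were read at 3 estimated counts or fewer in every library of cells lacking ATL2 and ATL3 and at a mean of at least 100 estimated counts in wild-type cells. These 74 genes, selected on their counts, are described here. An estimated count is the number of reads assigned to a gene, not always whole. Counts of 4 of the 74 genes (CMBL, FUZ, STK26 and MYEF2) were not all whole, so reads shared with similar sequences are uncertain there. The limits were met by 121 genes in all, of 10086 genes with a mean wild-type count of at least 100. From these, 47 were left out by symbol, 20 of them genes with zinc finger prefixes and 6 without a gene name, the others mainly with prefixes of homeobox cluster, collagen, laminin, cadherin, integrin, protease and guidance genes. Because the counts themselves chose the 74 genes, their difference between the genotypes is given as a description, with no test.

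COS7 is an established line of SV40-transformed, fibroblast-like kidney cells of the African green monkey (Chlorocebus sabaeus). The samples were 3 of cells with the ATL2/3 knockout (DKO) and 3 of wild-type cells (WT), grown in the same medium. ATL2 and ATL3 encode atlastins, which join membranes of the endoplasmic reticulum (ER) into a network using GTP. The labels say neither how the genes were disrupted, nor how many clones the DKO samples came from, nor whether the samples of a genotype were separate cultures, so any p-value here reflects spread among the deposited samples, and that spread may be technical.

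A gene that is transcribed in one culture of a line and silent in another can have lost its activators, carry a repressive chromatin state such as methylated promoter DNA, or be missing from the genome. Cultured lines, above all those grown from single cells, are known to differ from each other in this way at many unrelated genes. RNA levels alone do not separate these states, and in bulk samples fewer cells of a type and less RNA per cell cannot be told apart.

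The libraries held between 14197344 and 15693049 estimated counts. ATL2 had 320, 286 and 183 counts in DKO, against 1276, 1211 and 1354 in WT (log2 fold change -2.21, SE 0.23, edgeR adjusted p = 0.00029). ATL3 had 137, 156 and 107 counts in DKO, against 1046, 956 and 989 in WT (log2 fold change -2.83, SE 0.18, edgeR adjusted p = 3.7e-05). Both targeted mRNAs were thus lower in all 3 DKO samples, with no overlap, while keeping more reads than any of the 74 genes. DKO replicate 3 stood apart from the other DKO samples over all genes: without it, edgeR called 5110 genes lower and 4770 higher, against 2904 and 3055 with it. Of the defining fibroblast markers, vimentin (VIM) lay between 1260 and 1356 FPKM in DKO and between 1511 and 1551 FPKM in WT, whereas THY1 was listed at 0 in all 6 samples and COL1A2 did not exceed 0.03 FPKM. The summed level of the 7 fibroblast markers in the table was 1511 to 1562 FPKM in DKO and 3360 to 3451 FPKM in WT. Most of that difference lay in FN1, with a mean of 207 FPKM in DKO and 1838 FPKM in WT. COL1A1 (1.06 in DKO, 7.40 in WT) and S100A4 (10.8 in DKO, 34.0 in WT) were lower too, and PDGFRB was higher (5.35 in DKO, 0.59 in WT). The 5 epithelial markers summed to 528 to 688 FPKM in DKO and 708 to 800 FPKM in WT. Among them CLDN4 had a mean of 0.82 FPKM in DKO and 48.2 in WT, CDH1 0.09 in DKO and 4.84 in WT, KRT18 106 in DKO and 189 in WT, KRT8 451 in DKO and 508 in WT, and EPCAM 32.0 in DKO and 12.9 in WT. The part of these marker differences in the results on the 74 genes was not tested. The endothelial markers PECAM1 and VWF stayed at or below 0.31 FPKM and the leukocyte markers PTPRC and CD3E at or below 0.18 FPKM in every library. The macrophage marker CD68, also on the leukocyte list, made up nearly all of its sum of 13.3 to 14.9 FPKM in DKO and 14.1 to 15.9 FPKM in WT.

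The 74 genes together held 39, 24 and 23 counts in the DKO libraries, against 19727, 18887 and 19920 counts in the WT libraries. Scaled to library size, as CPM, this was 2.73, 1.69 and 1.47 in DKO and 1314, 1266 and 1317 in WT. The summed DKO level was 0.15% of that in WT. DKO replicate 3 could hardly stand apart here, since the limits held every gene at 3 counts or fewer in each DKO library. Its sum lay beside that of DKO replicate 2. A count was found in it for 17 of the genes, against 25 in DKO replicate 1 and 15 in DKO replicate 2. Of the 74 genes, 35 had no count in any DKO library, 18 had 1 count, 8 had 2, 5 had 3, 3 had 4 and 5 had 5 counts over the 3 libraries. The highest DKO level of any of them in any library was 0.14 FPKM, the deposited measure scaled for transcript length and library depth.

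**Figure D1:**
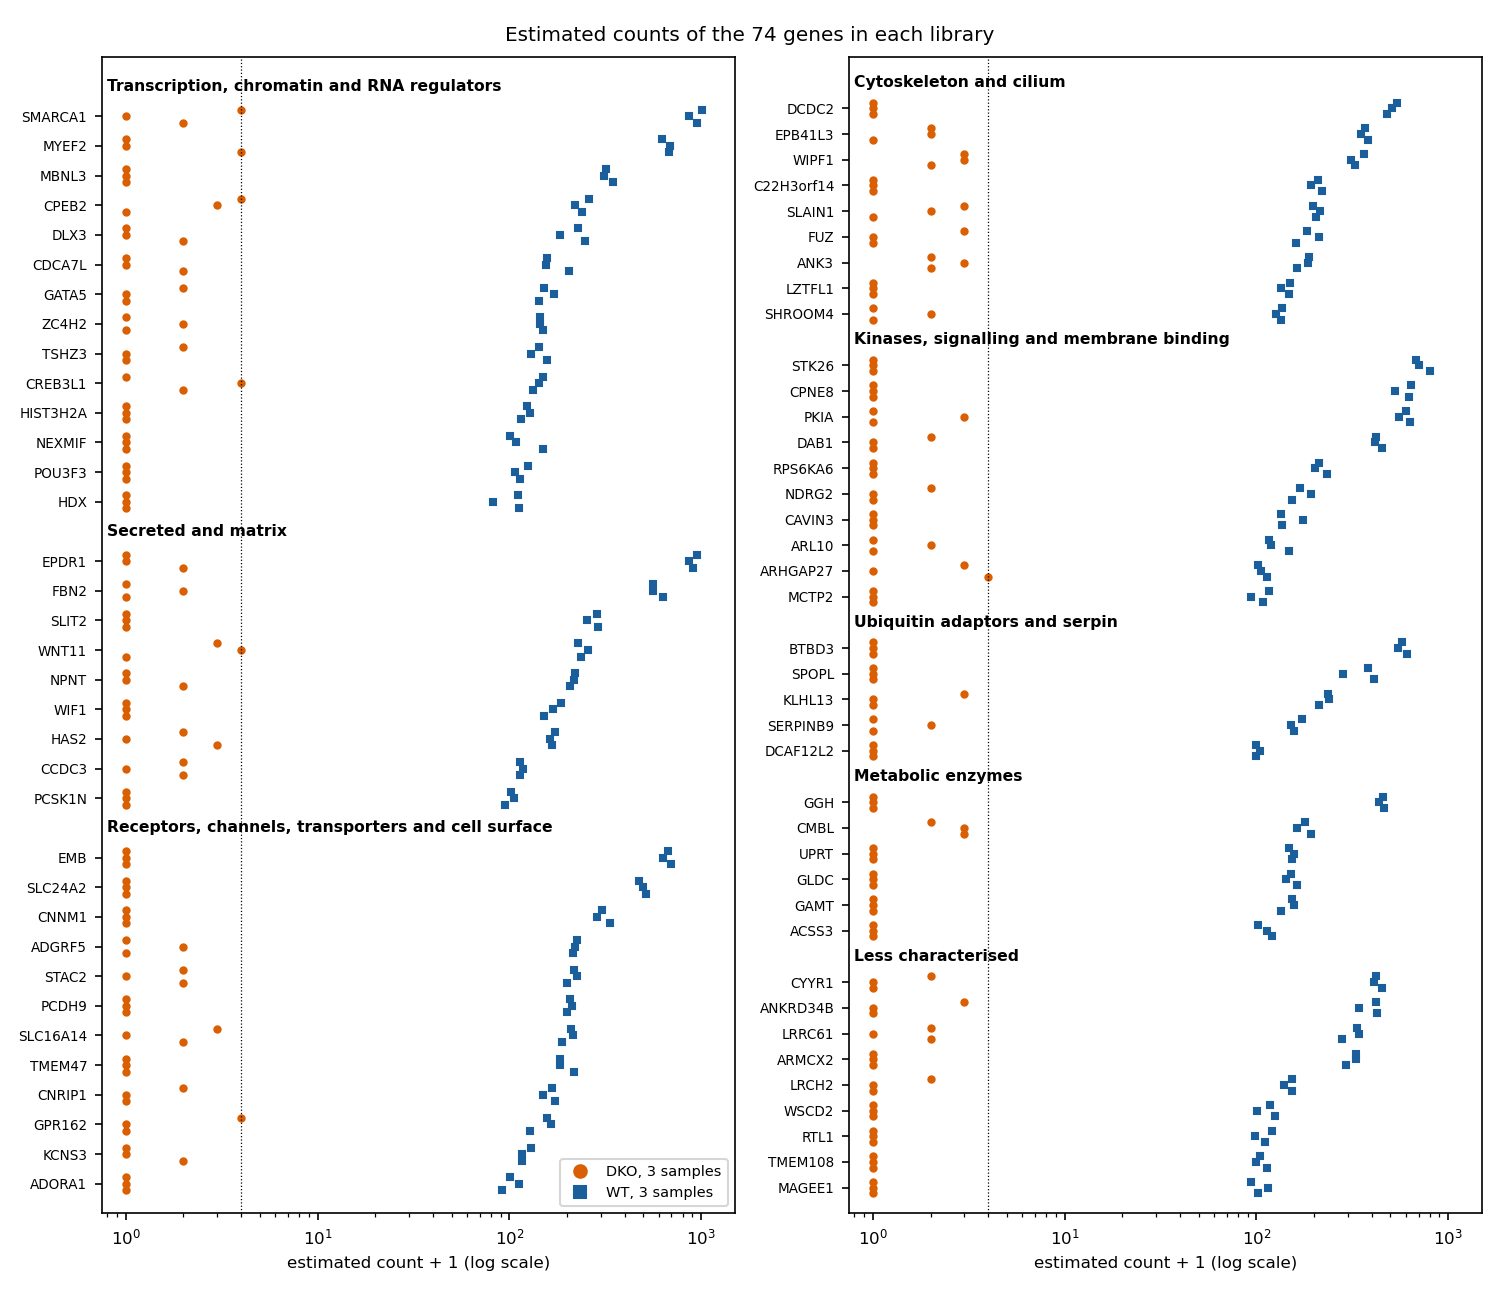
Estimated count plus 1 (log scale) of each of the 74 genes in the 3 DKO samples (orange circles) and the 3 WT samples (blue squares), ordered within functional groups by mean WT count. The dotted line marks 3 counts, the limit that chose the genes, and all DKO points lie on or left of it while all WT points lie at 81 counts or more.

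In WT the 74 genes were expressed at modest levels. Their mean WT level ran from 1.11 FPKM for SHROOM4 to 24.7 FPKM for EPDR1, with a median of 4.52 FPKM. The median of all genes with a mean WT count of at least 100 was 16.6 FPKM. Only 12 of the 74 reached 10 FPKM and 9 were under 2 FPKM. The WT samples agreed closely, with a median coefficient of variation of 6.77% over the 74 genes, where counting error alone gives a median of 7.43%. The largest spreads were those of NEXMIF (21.9%), SPOPL (18.4%) and HDX (16.9%).

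Few genes lay just outside the DKO limit: besides those left out by symbol, 4 had a highest DKO count of 4. The number chosen depended on the WT limit, with 143 genes at a mean WT count of at least 50 and 35 at 200. Of the 10086 genes with a mean WT count of at least 100, 128 had a DKO level under 1% of the WT level, 48 were between 1 and 5%, 38 between 5 and 10% and 139 between 10 and 25%, while 8639 lay between 50 and 200%. Of the 74 genes, 73 fell in the lowest of these classes and 1 in the next, which the limits themselves largely fixed. The genes within the limits, 1.2% of the 10086, had few counterparts in the other direction. Of 9937 genes with a mean DKO count of at least 100, 8 had 3 counts or fewer in each WT library. Just inside the WT limit lay PCSK1N and DCAF12L2, each with a mean of 100 counts in WT. Just outside it lay PNMA8A, with 0 counts in all DKO libraries and 108, 91 and 100 in WT, and FNDC10, with 0, 0 and 1 counts in DKO and 106, 102 and 86 in WT. At the DKO limit, ARHGAP27 was inside with 2, 0 and 3 counts in DKO and 101, 105 and 112 in WT. MATK was outside with 2, 1 and 4 counts in DKO and 241, 242 and 244 in WT, as was SERTAD4 with 4, 1 and 1 in DKO and 149, 126 and 142 in WT. All 74 genes passed the edgeR filter on low counts, which they could do through the WT samples alone. Over all 13094 genes tested, 22.2% were called lower in DKO (edgeR adjusted p below 0.05) and 23.3% were called higher.

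**Figure D2:**
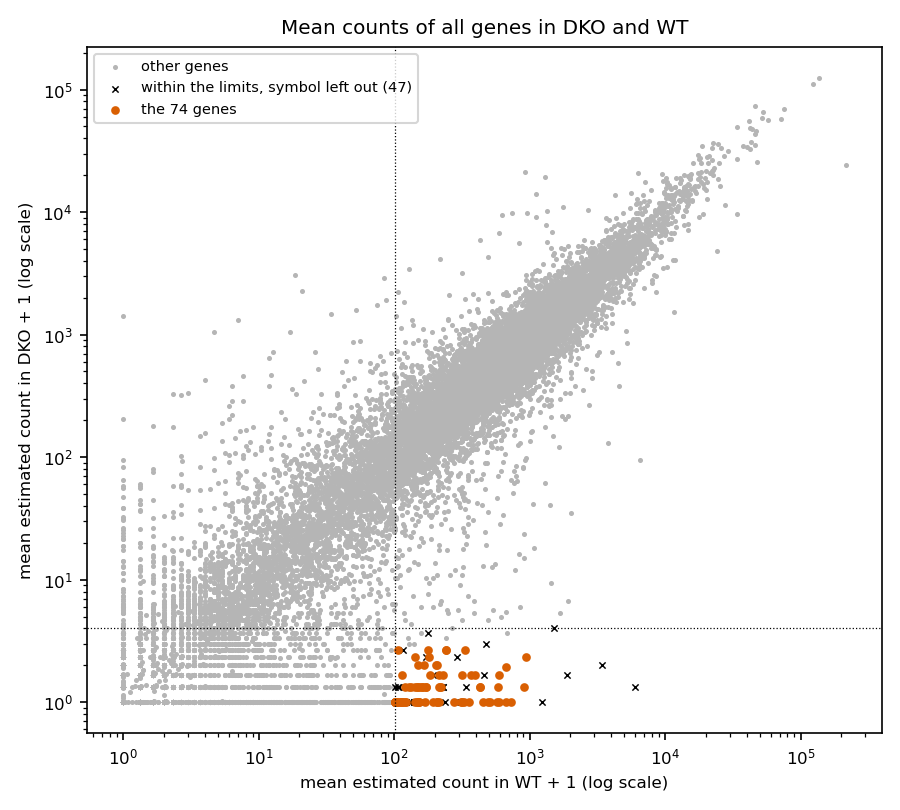
Mean estimated count plus 1 of every gene in DKO (vertical) and WT (horizontal), both on log scales, with the 74 genes in orange, the 47 left out by symbol as crosses and the limits as dotted lines. The 74 genes form the lower right edge of the cloud, with mean WT counts from 100 to 945, and few genes lie just above them.

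The largest functional group held 14 regulators of transcription, chromatin and RNA, 5 of them at 0 counts in DKO. SMARCA1 (gene ID 103232533), an ATPase of ISWI chromatin remodelling complexes, had the highest WT count of all 74 genes. It had 3, 0 and 1 counts in DKO, against 1014, 865 and 955 counts in WT, where its level was 17.4 ± 1.31 FPKM (SD, n = 3). The WT to DKO ratio was 695, with an exact 95% counting interval from 271 to 2551. Because low DKO counts chose the 74 genes, their ratios and intervals lean towards large values and are descriptive only. MYEF2 (gene ID 103245666), known in mouse as a repressor of the myelin basic protein gene, had 0, 0 and 3 counts in DKO and 625, 689 and 675 counts in WT (12.7 ± 0.91 FPKM in WT). Its ratio of WT to DKO was 650 (95% counting interval 222 to 3155). For both genes the DKO reads were scattered over 1 or 2 libraries and the WT samples lay close together.

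Sequence-specific factors in this group were the POU factor POU3F3 of brain and kidney development, the homeobox genes DLX3 and HDX, the zinc finger factor genes GATA5 and TSHZ3, and CREB3L1, a factor held in the ER membrane and released by proteolysis. POU3F3 had 0 counts in DKO and 124, 106 and 113 counts in WT, at least 37.3-fold lower in DKO against a floor of 3 counts per library. GATA5 had 1, 0 and 0 counts in DKO and 151, 170 and 141 in WT. CREB3L1 had 0, 3 and 1 counts in DKO and 148, 142 and 132 in WT. Among the rest, ZC4H2 encodes a nuclear zinc finger protein, MBNL3 a splicing regulator of the muscleblind family, CPEB2 a binder of polyadenylation elements in mRNA, CDCA7L a nuclear protein that binds MYC, NEXMIF a nuclear protein of neurite outgrowth and HIST3H2A a histone of the H2A class. MBNL3 was at 0 counts in DKO and at 318, 312 and 348 in WT, at least 106-fold lower. The WT levels of the 14 genes ran from 1.26 to 17.4 FPKM.

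The 9 genes of secreted and matrix proteins included both sides of WNT signalling. EPDR1 (gene ID 103226211), which encodes an ependymin-related secreted protein, had the highest WT level of the 74, with 25.9, 23.7 and 24.6 FPKM. It had 0, 0 and 1 counts in DKO, against 949, 863 and 904 counts in WT, a WT to DKO ratio of 2663 (95% counting interval 478 to 105222). WNT11, a ligand of noncanonical WNT signalling that acts in branching of the kidney, had 2, 3 and 0 counts in DKO and 227, 255 and 236 counts in WT (8.88 ± 0.54 FPKM in WT), a ratio of 141 (95% counting interval 60.1 to 435). WIF1, a secreted inhibitor that binds WNT ligands, had 0 counts in DKO and 185, 167 and 151 in WT. A ligand and an inhibitor of the pathway were therefore both near or at 0 in DKO.

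SLIT2, a guidance ligand of ROBO receptors, had 0 counts in DKO and 286, 254 and 290 in WT, at least 90.2-fold lower. FBN2, a fibrillin of microfibrils, had 0, 1 and 0 counts in DKO and 560, 562 and 629 in WT. HAS2, which synthesises hyaluronan, had 1, 0 and 2 counts in DKO and 171, 162 and 165 in WT. NPNT, an integrin ligand of kidney development, CCDC3, a secreted protein, and PCSK1N, which encodes an inhibitor of a prohormone convertase, had WT levels of 3.43, 3.12 and 7.36 FPKM. Of the 9 genes, 3 had no DKO count.

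Receptors, channels, transporters and other surface proteins made up 12 genes, 6 of them without a DKO count. EMB (gene ID 103221173) encodes embigin, a membrane partner that carries monocarboxylate transporters to the surface. It had 0 counts in every DKO library, against 671, 629 and 694 counts in WT (10.9 ± 0.9 FPKM), at least 217-fold lower. CNRIP1, which encodes a protein that binds the cannabinoid receptor, had 1, 0 and 0 counts in DKO and 166, 148 and 173 in WT (7.95 ± 0.62 FPKM in WT). SLC24A2, a sodium, calcium and potassium exchanger, had 0 counts in DKO and 473, 494 and 513 in WT, at least 161-fold lower. CNNM1, of a family linked to magnesium transport, was at 0 counts in DKO and at 303, 286 and 335 in WT, at least 100.4-fold lower. The other genes were the receptor genes ADORA1 (adenosine), ADGRF5 (adhesion type) and GPR162 (orphan), the transporter gene SLC16A14, the potassium channel subunit gene KCNS3, STAC2, an adaptor of calcium channels, the protocadherin gene PCDH9 and TMEM47, a junctional membrane protein gene. Their WT levels lay between 2.35 and 4.83 FPKM.

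Of 9 genes of the cytoskeleton and the cilium, 3 had no DKO count. C22H3orf14 (gene ID 103227824), which RefSeq names CEP15, had 0 counts in DKO and 209, 192 and 220 counts in WT, with 20.3 ± 1.62 FPKM in WT. DCDC2, a doublecortin-domain protein of microtubules and the cilium, had 0 counts in DKO and 542, 507 and 479 counts in WT (16.7 ± 1.07 FPKM), at least 166-fold lower. LZTFL1, a regulator of the BBSome in ciliary transport, had 0 counts in DKO and 148, 133 and 147 in WT. FUZ, an effector of planar polarity needed for cilia, had 2, 0 and 0 counts in DKO and 183, 210 and 159 in WT. These 4 genes of the cilium or its base all had WT levels above 2.9 FPKM.

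The remaining genes of this group bind actin, microtubules or the membrane skeleton: SLAIN1 (microtubule ends), ANK3 (ankyrin G), EPB41L3 (protein 4.1 family), SHROOM4 (actin) and WIPF1 (partner of WASP). WIPF1 and ANK3 were among only 3 genes of the 74 with reads in each DKO library, the other being CMBL. WIPF1 had 2, 2 and 1 counts in DKO and 363, 312 and 327 in WT, a WT to DKO ratio of 196 (95% counting interval 83.9 to 606). ANK3 had 1, 2 and 1 counts in DKO and 188, 185 and 162 in WT, a ratio of 131 (50.9 to 483).

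A further 10 genes encode kinases, signalling proteins and proteins that bind membranes, and 5 of them had no DKO count. STK26 (gene ID 103232573), a kinase of the GCKIII family, had 0 counts in DKO and 682, 703 and 803 counts in WT (11.2 ± 0.94 FPKM). At least 238-fold lower, it had the highest such bound of the 35 genes at 0. CPNE8, a copine that binds membranes with calcium, had 0 counts in DKO and 636, 529 and 620 in WT (12.0 ± 1.12 FPKM), at least 194-fold lower. PKIA, an inhibitor of protein kinase A, had 0, 2 and 0 counts in DKO and 600, 554 and 628 in WT (14.3 ± 0.89 FPKM in WT). DAB1, the adaptor of Reelin receptors, had 1, 0 and 0 counts in DKO and 421, 415 and 450 in WT. The others were RPS6KA6 (a ribosomal S6 kinase), CAVIN3 (caveolar coat), NDRG2, ARHGAP27 (a GTPase activator), ARL10 (an ARF-like GTPase) and MCTP2 (a membrane protein with C2 domains), with WT levels from 1.20 to 6.03 FPKM.

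A smaller group held 4 genes of BTB or WD-repeat proteins, most of them adaptors of ubiquitin ligases, and 1 serpin gene. BTBD3, a BTB-domain protein known in mouse for dendrite orientation, had 0 counts in DKO and 572, 545 and 607 counts in WT (8.49 ± 0.43 FPKM), at least 187-fold lower. KLHL13, a CUL3 adaptor that acts in mitosis, had 2, 0 and 0 counts in DKO and 236, 238 and 212 in WT (4.81 ± 0.35 FPKM in WT). SPOPL, a relative of the CUL3 adaptor SPOP, had 0 counts in DKO and 380, 283 and 408 in WT, at least 116-fold lower. DCAF12L2 had 0 counts in DKO and 99, 103 and 98 in WT. SERPINB9, an inhibitor of granzyme B, had 0, 1 and 0 counts in DKO and 171, 151 and 156 in WT.

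Among 6 metabolic enzyme genes, 5 had no count in DKO. GGH, which removes glutamates from folates, had 0 counts in DKO and 455, 432 and 463 counts in WT, and with 22.4 ± 0.72 FPKM it had the second highest WT level of the 74. It was at least 147-fold lower. GAMT, the last enzyme of creatine synthesis, had 0 counts in DKO and 152, 156 and 134 in WT (11.4 ± 0.92 FPKM). GLDC, the decarboxylase of the glycine cleavage system, had 0 counts in DKO and 150, 142 and 162 in WT. UPRT, a homologue of uracil phosphoribosyltransferase, had 0 counts in DKO and 146, 156 and 153 in WT, and ACSS3, a mitochondrial acyl-CoA synthetase, 0 in DKO and 101, 112 and 119 in WT. The hydrolase gene CMBL kept 1, 2 and 2 counts in DKO, against 179, 162 and 192 in WT, a WT to DKO ratio of 105 (95% counting interval 44.5 to 323).

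The other 9 genes are less well characterised: LRRC61, ARMCX2, CYYR1, ANKRD34B, TMEM108, MAGEE1, LRCH2, WSCD2 and RTL1, the last an imprinted gene derived from a retrotransposon. LRRC61 had 1, 0 and 1 counts in DKO and 334, 341 and 279 counts in WT (9.2 ± 1.03 FPKM in WT). ARMCX2, of the armadillo-repeat family on the X chromosome, had 0 counts in DKO and 329, 328 and 292 in WT (9.0 ± 0.64 FPKM), at least 103-fold lower. RTL1 had 0 counts in DKO and 120, 97 and 110 in WT. Of these 9 genes, 5 had no DKO count.

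The position of the genes was not used to choose them. RefSeq gene IDs of 73 of the 74 genes are in the annotation of assembly mChlSab1.0.hap1, which served only to order genes and assign them to X, since the build behind the table is not given. Of the 73 genes, 16 were placed on X, and the IDs of 14 of these fall in the range from 103231783 to 103232577, which held no other member. The other 57 were spread over 25 of 29 further chromosomes, with 5 at most on any of them. Among genes with a mean WT count of at least 100, the share within the limits was 4.86% on X (16 of 329) and 1.08% off X (103 of 9560, counting those left out by symbol). The next highest share on any chromosome was 3.39%. The 16 genes were MBNL3, STK26, SMARCA1, DCAF12L2, KLHL13, LRCH2, ARMCX2, HDX, RPS6KA6, MAGEE1, UPRT, NEXMIF, ZC4H2, SHROOM4, PCSK1N and TMEM47. No DKO count was found for 11 of these 16 and for 23 of the 57 off X. Their WT median was 3.08 FPKM, against 4.83 FPKM for the 57.

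Several of the genes on X lay close together. HDX and RPS6KA6 were direct neighbours in the order of measured genes, HDX with 0 counts in DKO and 110, 81 and 111 in WT, and RPS6KA6 with 0 counts in DKO and 212, 200 and 232 in WT. MBNL3 and STK26 were separated by RAP2C and FRMD7, and RAP2C fell by 1.79 on the log2 scale (edgeR adjusted p = 0.0022). Between KLHL13 and LRCH2 lay 1 unnamed gene, and between SMARCA1 and DCAF12L2 another that was hardly expressed. Off X, no 2 of the 74 genes lay within 5 places of each other.

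X genes outside the limits were also called lower more often than all other genes pooled. Of 404 such genes tested on X, edgeR called 170 lower (42.1%) and 62 higher (15.3%), with a median log2 fold change of -0.36. Off X, 2536 of 12125 genes were called lower (20.9%) and 2875 higher (23.7%), with a median of 0.01. X was not the lowest chromosome by this measure. On chromosome 25, 201 of 332 such genes were lower and 19 higher (median -0.71). On chromosome 4, 82 of 234 were lower and 24 higher (median -0.46), with a larger shift in DKO replicate 3 than in the others (values below). Chromosome 25 held only 2 of the 74 genes, HIST3H2A and ADORA1, and 0.75% of its genes with a mean WT count of at least 100 were within the limits. The X median was negative in each DKO library, at -0.33, -0.32 and -0.52 in DKO replicates 1, 2 and 3 relative to the WT mean on the log2(CPM + 1) scale. When 1 sample was left out, the count of lower X genes was 134 to 233 and that of higher X genes 39 to 95. Over all genes the same settings gave 2146 to 5110 lower and 2105 to 4770 higher. The highest of each came without DKO replicate 3.

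The shift was uneven along X. In the order of RefSeq, X was divided into runs of 100 measured genes, the last of 102. In the first run 45 of 63 tested genes outside the limits were called lower and 4 higher (median log2 fold change -0.75), and it held none of the 74 genes. The second run had 48 lower and 4 higher of 61 (median -0.92) and held 6 of them, from MBNL3 to LRCH2. In the third run 30 were lower and 9 higher of 65 (median -0.41), beside 5 of the 74 genes. The next 2 runs, with medians of -0.08 and 0.07, held NEXMIF, ZC4H2, SHROOM4, PCSK1N and TMEM47. The sixth had a median of -0.27 and none of the 74. Genes at 3 counts or fewer thus lay both where most other genes were lower and where they were not.

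**Figure D3:**
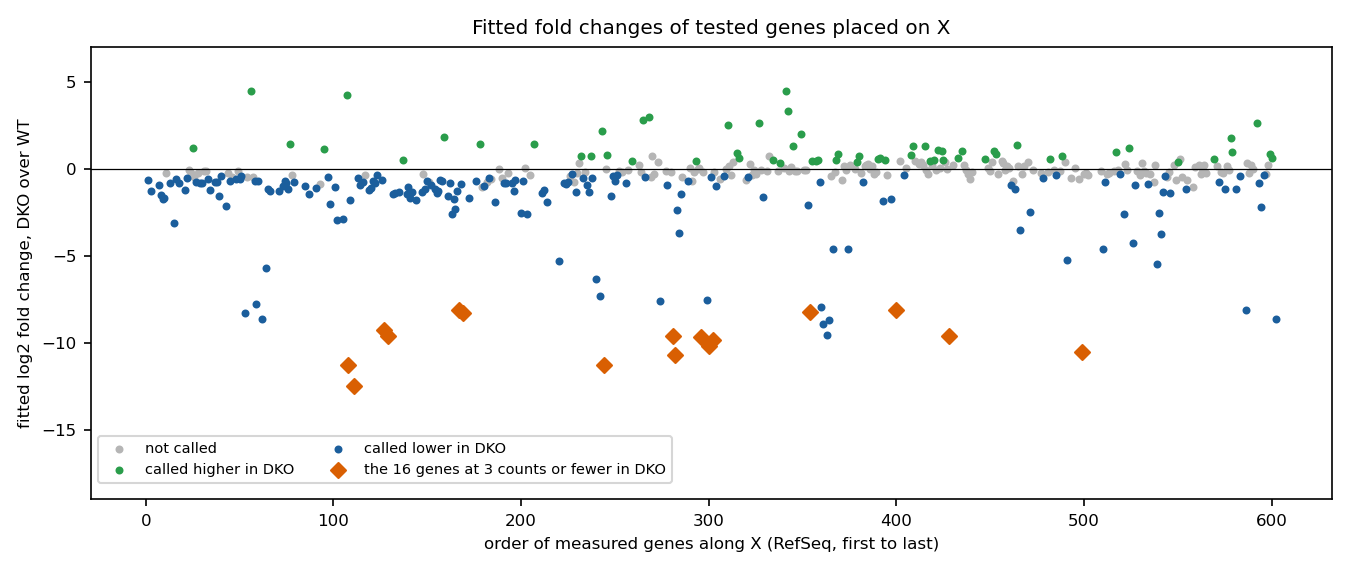
Fitted log2 fold change (edgeR, DKO over WT) of each tested gene placed on X, plotted by its rank in the RefSeq order of measured genes. Orange diamonds are the 16 genes at 3 counts or fewer in DKO, whose fitted values follow their WT counts, and blue, green and grey points are other genes called lower, called higher and not called, with most of the first 200 positions below 0.

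Over the whole genome, 166 runs of this kind were formed, and 10 had a median log2 fold change at or below -0.5. Runs 1 and 2 of chromosome 4 were among these 10. On the log2(CPM + 1) scale relative to the WT mean, their medians were -0.38 and -0.32 in DKO replicate 1. They were -0.37 and -0.34 in DKO replicate 2, and -1.18 and -1.08 in DKO replicate 3. The 10 runs held 10 of the 73 placed genes, 6 of them in the second run of X. The other 63 lay in runs with medians above -0.5. The share of genes within the limits was 2.13% of 564 genes with a mean WT count of at least 100 in the 10 lower runs, and 1.15% of 9325 in the others. Off X, it was 1.33% of 451 genes in the 8 lower runs. With the dividing line at a median of 0 instead, 51 of the 73 lay in the 89 runs below 0 and 22 in the other 77. The share within the limits was then 1.66% of 5181 genes in the runs below 0 and 0.70% of 4708 in the others.

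The nearest measured neighbours on each side were examined next. Neighbours that were themselves among the 74 genes were left out. The remaining 141 included none of the genes left out by symbol, and 94 were tested. Of these, 29 were called lower (30.9%) and 17 higher (18.1%), beside 22.2% and 23.3% of all genes. On X, 8 of 18 were lower and 3 higher. Off X, 21 of 76 were lower (27.6%) and 14 higher (18.4%). The count of lower neighbours ranged from 17, without WT replicate 2, to 50, without DKO replicate 3, which also gave 29 higher. HNMT, a histamine methyltransferase gene beside SPOPL, had 0 counts in DKO and 69, 53 and 63 counts in WT, at least 20.1-fold lower (edgeR adjusted p = 0.00017). ZDHHC15, a palmitoyltransferase gene beside UPRT, had 1, 0 and 0 counts in DKO and 88, 87 and 98 in WT, a WT to DKO ratio of 268 (95% counting interval 47.6 to 10611). Both missed the rule only through their WT counts.

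Further lower neighbours kept part of their expression. SH3BGRL, beside RPS6KA6, had 319, 322 and 134 counts in DKO and 1441, 1313 and 1414 in WT (log2 fold change -2.35, SE 0.33, edgeR adjusted p = 0.0013). PTPRG, a receptor phosphatase gene beside C22H3orf14, had a log2 fold change of -2.28 (SE 0.16). ZC3H12B, beside ZC4H2, had -2.10 (SE 0.43), and -2.97 without DKO replicate 1. Neighbours also rose. HS6ST2, a heparan sulfate sulfotransferase gene beside MBNL3, had 356, 364 and 264 counts in DKO and 21, 15 and 18 in WT (log2 fold change 4.25, SE 0.23, edgeR adjusted p = 2.0e-05). ZMAT1 beside ARMCX2 (2.18, SE 0.34), the ciliary gene CC2D2A beside CPEB2 (2.06, SE 0.15), SNTB1 beside HAS2 (2.02, SE 0.27) and the ceramidase gene ACER2 beside SLC24A2 (1.70, SE 0.25) were also higher. A gene at 0 in DKO could thus adjoin one that was several-fold higher.

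Relatives of the 74 genes were taken as the genes with the same symbol stem. Of 565 tested, 116 were called lower (20.5%) and 136 higher (24.1%), close to the 22.2% and 23.3% of all genes. Stems such as TMEM or CCDC name no family. Without these, a choice made after the data were seen, 184 relatives remained, 60 of them lower (32.6%) and 41 higher (22.3%). The 74 genes themselves were not counted as relatives, so no relative could be within the limits. The relatives named from here to the end of the account of families were chosen after their values were seen, except the 5 largest changes in each direction: WNT7A, ARHGAP28, STK33, TMEM154, CCDC184, POU3F2, CAVIN2, GATA4, ARHGAP40 and CCDC36.

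In several families a relative was higher in DKO where the member was near 0. POU3F2, a POU factor of neural development and the relative of POU3F3, had 32, 42 and 21 counts in DKO and 0 counts in WT, at least 10.9-fold higher (edgeR adjusted p = 0.0016), at only 0.46 ± 0.18 FPKM in DKO. Of 4 tested relatives of GATA5, 2 were called higher and 1 lower. GATA4, a factor of heart and gonad development and a relative of GATA5, had 306, 300 and 384 counts in DKO and 1, 5 and 0 in WT (log2 fold change 7.34, SE 0.46, and 9.09 without WT replicate 2). GATA6, which acts with GATA4 in the heart and gut, was at 6.76 ± 1.95 FPKM in DKO and 1.31 ± 0.03 FPKM in WT (2.40, SE 0.22, edgeR adjusted p = 0.00018). GATA2 was lower (-0.43, SE 0.14, edgeR adjusted p = 0.044), but not without DKO replicate 1 or 2 (0.12 and 0.11) or any 1 WT sample (0.11 to 0.13). CAVIN2, another caveolar coat gene beside CAVIN3, had 294, 340 and 328 counts in DKO and 1, 3 and 1 in WT (7.55, SE 0.28, and 8.21 without WT replicate 2), while the main coat gene CAVIN1 was not called (0.04, SE 0.10, edgeR adjusted p = 0.78). For POU3F2, GATA4, GATA6 and CAVIN2 the DKO and WT samples did not overlap.

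CREB3L2, an ER-held factor like CREB3L1, was at 7.32 ± 1.18 FPKM in DKO and 3.31 ± 0.06 FPKM in WT (1.18, SE 0.13, edgeR adjusted p = 0.00045). ADORA2A, the relative of ADORA1, was at 2.19 ± 0.60 FPKM in DKO and 0.70 ± 0.25 FPKM in WT (1.69, SE 0.33, edgeR adjusted p = 0.0056). The hyaluronan synthase gene HAS3 was at 1.26 ± 0.14 FPKM in DKO and 0.44 ± 0.06 FPKM in WT (1.50, SE 0.16, edgeR adjusted p = 0.00037). STAC3, which like STAC2 binds calcium channels, had a log2 fold change of 2.74 (SE 0.42). ARHGAP40 (3.70, SE 0.30) and CCDC36 (3.69, SE 0.16) completed the 5 largest increases, though CCDC36 shares only a symbol stem with CCDC3.

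In other families the relatives were lower as well. Of 5 tested relatives of DLX3, 4 were called lower and 0 higher, among them DLX2 at 0.33 ± 0.11 FPKM in DKO and 4.22 ± 0.35 FPKM in WT (log2 fold change -3.63, SE 0.22, edgeR adjusted p = 3.5e-05) and DLX5 (-1.48, SE 0.24). Of 4 tested relatives of ARMCX2, 3 were lower, with ARMCX1 at 4.63 ± 1.13 FPKM in DKO and 14.3 ± 0.31 FPKM in WT. This family lies on X, where 42.1% of tested genes outside the limits were lower, against 20.9% off X. The parts of family and position in this were not tested. SHROOM2 (-1.14, SE 0.11) and SHROOM3 (2.37 FPKM in DKO and 4.96 FPKM in WT), which like SHROOM4 bind actin, were both lower. So was ANK2, the ankyrin B gene, at 2.24 ± 0.39 FPKM in DKO and 10.4 ± 0.47 FPKM in WT (-2.14, SE 0.13), and ADGRF4 (-2.06, SE 0.22). FBN1 fell by 0.71 on the log2 scale (SE 0.10) and LRCH3 by 0.74 (SE 0.15). The teashirt gene TSHZ1 had 2, 4 and 0 counts in DKO and 125, 122 and 137 in WT, just outside the DKO limit (log2 fold change -5.85, and -6.79 without DKO replicate 2).

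In some families relatives moved both ways. Of 7 tested relatives of WNT11, 3 were lower and 2 higher. WNT7A had 0 counts in DKO and 22, 29 and 24 in WT, at least 8.16-fold lower, and WNT16 fell to 0.08 ± 0.03 FPKM in DKO, against 6.06 ± 0.38 FPKM in WT (-6.37, SE 0.20). Of 5 tested relatives of RPS6KA6, 3 were lower and 1 higher (median -0.61). RPS6KA1 was lower (-0.85, SE 0.16, edgeR adjusted p = 0.0046), as was RPS6KA5 (-0.61, SE 0.21, edgeR adjusted p = 0.049), though RPS6KA5 was not called without DKO replicate 2 (0.091) or any 1 WT sample (0.089 to 0.15). RPS6KA3 was lower (-0.96, SE 0.24, edgeR adjusted p = 0.015, and 0.053 without WT replicate 3), and RPS6KA2 was higher (1.21, SE 0.16). SMARCA5, the other ISWI ATPase gene, was at 29.5 ± 11.1 FPKM in DKO and 53.7 ± 2.55 FPKM in WT (-0.81, SE 0.25, edgeR adjusted p = 0.035). Without WT replicate 1, 2 or 3 its adjusted p was 0.09, 0.082 and 0.099. The SWI/SNF ATPase gene SMARCA4 was at 95.8 ± 11.2 FPKM in DKO and 68.0 ± 1.37 FPKM in WT (0.54, SE 0.12). ARHGAP28, STK33, TMEM154 and CCDC184 had no count in DKO and were at least 11.5, 9.46, 14.7 and 7.61-fold lower. The stems STK, TMEM and CCDC were counted among those that name no family.

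**Figure D4:**
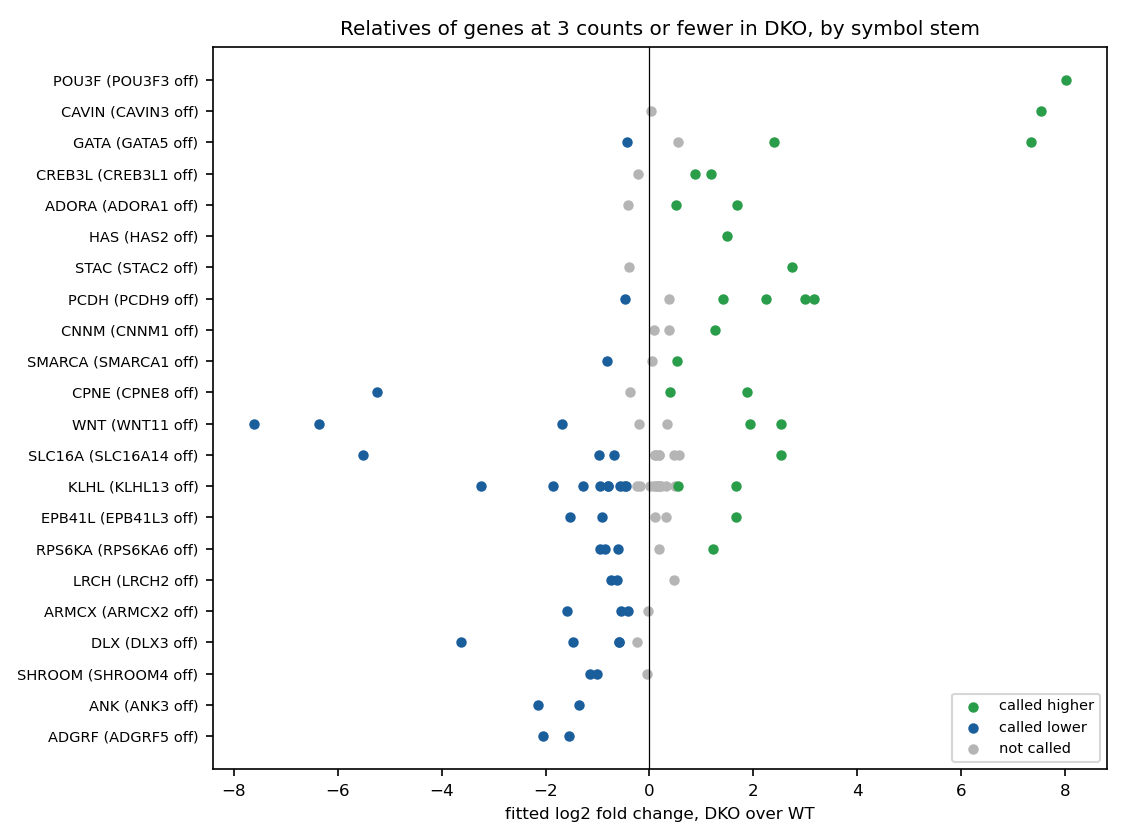
Fitted log2 fold change (edgeR, DKO over WT) of each tested relative in 22 picked families, named by symbol stem with the gene at 3 counts or fewer in DKO in brackets. Families not shown include some without a called relative, such as MBNL, SLIT and DAB. Over all 565 tested relatives, 20.5% were called lower and 24.1% higher. Green points were called higher, blue lower and grey not called, and the families run from those with higher relatives (POU3F, CAVIN, and GATA with 2 higher and 1 lower) to those with called relatives that were all lower (DLX, SHROOM, ANK, ADGRF).

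Genes of the same family, complex or pathway as a few of the genes were followed in fixed lists. These were not all known binding partners. Of 51 tested genes in the 5 lists built around STK26, EMB, CPNE8, BTBD3 and DCDC2, 10 were lower (19.6%) and 8 higher (15.7%), beside 22.2% and 23.3% of all genes. Of 17 genes listed with STK26 for the GCKIII family and the STRIPAK complex, 3 were lower and 1 higher, with a median log2 fold change of -0.26. The STRIPAK subunit gene STRIP2 was at 0.56 ± 0.04 FPKM in DKO and 1.03 ± 0.06 FPKM in WT (-0.83, SE 0.16, edgeR adjusted p = 0.0046). The subunit genes SIKE1 (-0.46, edgeR adjusted p = 0.028) and STRN4 (-0.41, edgeR adjusted p = 0.03) lost their calls without DKO replicate 1 (edgeR adjusted p = 0.052 and 0.083) or any 1 WT sample (0.08 to 0.11 and 0.079 to 0.099), and STRN4 also without DKO replicate 2 (0.078). Of the other GCKIII kinase genes, STK25 was higher, at 130 ± 23.5 FPKM in DKO and 91.1 ± 8.27 FPKM in WT (0.54, SE 0.17, edgeR adjusted p = 0.039), but not without any 1 WT sample (0.072 to 0.13). STK24 was not called (-0.09, SE 0.20, edgeR adjusted p = 0.76).

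Of 8 tested genes of monocarboxylate transport besides EMB, 2 were lower and 1 higher (median -0.03). Basigin (BSG), the other carrier of these transporters, was not called (-0.15, SE 0.17, edgeR adjusted p = 0.50), nor was the transporter gene SLC16A1 (0.10, SE 0.18, edgeR adjusted p = 0.68). SLC16A7, the transporter that embigin accompanies in rat, had 1, 0 and 0 counts in DKO and 19, 25 and 21 in WT, a WT to DKO ratio of 63.7 (95% counting interval 11.0 to 2556). SLC16A4 was lower (-0.68, SE 0.18, edgeR adjusted p = 0.017), but not without any 1 WT sample (0.051 to 0.071). The lactate dehydrogenase gene LDHB was higher (0.49, SE 0.09, edgeR adjusted p = 0.0049).

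Among 4 other copines, CPNE4 had 2, 1 and 3 counts in DKO and 82, 93 and 78 in WT (-5.25, SE 0.28). CPNE5 was higher (1.89, SE 0.36), and CPNE2 (0.40, edgeR adjusted p = 0.036) was not called without DKO replicate 1 (0.051) or any 1 WT sample (0.11 to 0.12). Of 14 BTB adaptors and CUL3 partners, 2 were lower and 3 higher (median 0.07), with KEAP1 (0.88, SE 0.16) and BTBD6 (0.94, SE 0.18) higher. RBX1 was higher (0.47, edgeR adjusted p = 0.013), but not without WT replicate 1 (0.076) or 3 (0.078). SPOP, the relative of SPOPL, was not called (0.08, SE 0.13, edgeR adjusted p = 0.65). Of 8 tested doublecortin and cilium length genes, 2 were lower and 1 higher (median 0.06). DCLK2 was lower (-0.82, SE 0.14) and NPHP4 higher (0.73, SE 0.16).

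Of 30 genes of DNA methylation and gene silencing, 7 were lower (23.3%) and 4 higher (13.3%), beside 22.2% and 23.3% of all genes, with a median log2 fold change of -0.19. The de novo methyltransferase gene DNMT3A was at 1.12 ± 0.19 FPKM in DKO and 2.82 ± 0.11 FPKM in WT (-1.55, SE 0.12, edgeR adjusted p = 8.7e-05). The gene of the methyl-DNA binding protein MBD2 (-1.29, SE 0.23) was lower too. The 4 higher genes were the deacetylase genes HDAC2 (1.11, SE 0.25) and HDAC3 (0.83, SE 0.16), the histone methyltransferase gene SUV39H1 (0.62, SE 0.17, edgeR adjusted p = 0.024) and the maintenance methyltransferase gene DNMT1 (0.34, SE 0.10, edgeR adjusted p = 0.031). Without any 1 WT sample SUV39H1 (0.075 to 0.091) and DNMT1 (0.083 to 0.13) were not called. DNA methylation itself was not measured.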

How the data were processed

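Per the file headers, the authors deposited 1 table of 18050 genes with an estimated count and an FPKM value (fragments scaled by transcript length and depth) per sample. Per the submitters' processing notes the tools included HISAT and Bowtie2. No counting program or build was found in the sources used here. The 9 columns of 3 other samples were not used. Rounded counts entered edgeR 4.0.16 under R 4.3.3 (quasi-likelihood test, TMM, filter with a minimum count of 10, 13094 genes, Benjamini-Hochberg adjustment, call below 0.05). SE is the fold change divided by the root of F and can fall below counting error where a group has few counts. Folds of genes at 0 are bounds against 3 counts per library. Ratios carry exact 95% intervals for counting error only. On simulated DKO and WT counts (12935 genes) 100% of 2-fold and 100% of 4-fold changes were recovered, and 1.48% of calls were false. The simulation gave all genes and libraries the same spread beyond counting error and changed only genes with a mean of at least 100 counts. It therefore does not describe changes of genes with fewer counts, or the effect of DKO replicate 3. The members and lists were chosen with earlier results of these data known. Named members were, per functional group, the 2 of highest WT level, genes with reads in every DKO library, genes at the limits and adjoining members. Other members given per sample, and RAP2C, STK25, HDAC2, HDAC3, SUV39H1, DNMT1 and the named genes that were not called, were chosen after their values were seen. Neighbours and relatives were named by size of change, list genes by adjusted p. Gene order came from RefSeq (16730 gene IDs matched, 92.7%). Promoter CpG content was planned and not run, as no sequence was used here. Figures used matplotlib 3.10.9.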

Additional observations from a re-analysis of the deposited data

How the results depend on the processing

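The number of genes chosen was 35 at 0 counts in each DKO library, 143 at a mean WT count of at least 50 and 35 at 200, and 71 to 78 when 1 sample was left out. Leaving out 1 sample at a time gave 2146 to 5110 genes lower and 2105 to 4770 higher over all genes. It gave 17 to 50 lower and 12 to 29 higher neighbours, and 86 to 191 lower and 91 to 213 higher relatives. It also gave 8 to 33 lower and 7 to 25 higher list genes, and 134 to 233 lower and 39 to 95 higher X genes. The highest of each came without DKO replicate 3. At an adjusted p below 0.01 there were 1950 genes higher over all genes, 40 higher on X, 17 neighbours lower, 75 relatives lower and 86 higher, and 8 list genes lower and 7 higher. With 3 neighbours on each side 86 were lower and 53 higher. Without stems that name no family 60 relatives were lower and 41 higher. The replicate block gave 2265 genes lower and 2220 higher over all genes, 41 higher on X, and 11 list genes lower and 7 higher. Same-numbered samples had correlations of 0.02, -0.28 and -0.29 in their deviations from the group means. Differently numbered samples had -0.26 to 0.31. Values of like size in both cannot settle whether same-numbered samples were paired. Under the alternatives, 763 values of 66 named genes kept their call, 69 lost it and 0 changed sign. The cause of these changes was not tested. At this depth a gene at 0 counts can still be present below the floor of 3 counts.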
